A study of Homo sapiens with 8 samples.

Results

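The cancer-testis antigens examined were the 10 genes CTAG1A, CTAG1B, CTAG2, MAGEA1, MAGEA3, MAGEA4, MAGEA6, MAGEA12, PRAME and GAGE1, measured in KYSE850, an established human esophageal squamous cell carcinoma (ESCC) line. Members were taken as every probe whose RefSeq accession belonged to one of these symbols. Of the 10 genes, 8 had a probe, and CTAG1B and MAGEA3 had none under their own names, so 10 of 42405 probes on the array were read. The genes were chosen by a readout of the same arrays, the fall of the CTAG1A probe below background, so the change of that probe is given as a description, without a test. The other members were taken by name.

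KYSE850 cells given a control siRNA (4 arrays) were compared with KYSE850 cells given siRNA against KHSRP (4 arrays), an RNA-binding protein of mRNA decay and microRNA maturation. All 8 arrays came from 1 cell line, and no other agent or genetic change is named in the labels. Neither the identity of the KHSRP siRNA on each array, nor whether replicates were separate cultures, nor the length of treatment is given in the labels, so p-values measure the spread between these arrays, which may be technical.

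Cancer-testis genes are normally transcribed in male germ cells and are silent in most other adult tissues, where their promoters carry DNA methylation. Many lie in multicopy clusters on the X chromosome, and in carcinomas they are often switched on together. CTAG1A and CTAG1B are near-identical copies for the antigen NY-ESO-1, and CTAG2 encodes its close relative LAGE-1. The MAGEA proteins partner with E3 ubiquitin ligases, PRAME is a leucine-rich repeat protein that serves as a substrate receptor of a cullin ligase, and GAGE1 belongs to a large family of small acidic proteins.

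Values are log2 levels of the processed signal relative to the 75th percentile of all probes on the array, so a probe at 0 is as bright as that percentile. Levels of different probes cannot be compared with each other. Each array had between 19145 (45.1%) and 20938 (49.4%) probes well above background by the scanner's criterion, no saturated spot, and 265 to 346 outlier spots. KHSRP (probe A_23_P16157) was 6.08 ± 0.239 with control siRNA and 2.71 ± 0.185 with KHSRP siRNA (SD, n = 4 per group), a log2 difference of -3.37 that left 9.66% of the control signal (limma, adjusted p = 5.95e-05; exact permutation p = 0.0286, the smallest that 4 arrays against 4 allow). A second KHSRP probe (A_24_P134235) differed by -2.67 (limma, adjusted p = 0.0147). It was well above background on 4 control arrays and 0 KHSRP siRNA arrays, so it was tested through the control group. The 10 genes listed as squamous epithelial markers, KRT5, KRT14, KRT6A, KRT17, TP63, SOX2, DSG3, DSC3, CDH1 and EPCAM, were well above background on all 8 arrays. EPCAM among them is a simple-epithelial adhesion gene. The 4 endothelial markers and 6 of 7 fibroblast markers were well above background on no array. Each of the 6 leukocyte markers with a probe was well above background on at least 1 array, and CD14 and CD68 were tested. The arrays were not interchangeable within a group. After subtraction of the group means, each KHSRP siRNA array resembled 1 control array, replicate 1 with 1, 2 with 2, 4 with control 3, and 3 with control 4, which are also the numbers that the authors' series matrix gives these arrays. Results are given with these 4 pairs as a block as well, where that changed the call of a member or the count of a list. As the pairs were picked by likeness in the same levels, p-values with the block may be too small.

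Promoters are shown for MAGEA6, MAGEA12 and PRAME, whose levels moved together across arrays. RefSeq (GRCh38.p14) promoter windows were found for 6 of the 10 genes. The 250 bases before the start are printed 5′ to 3′ on the gene's strand, with each CG, the dinucleotide that DNA methylation acts on, in capitals. Where a gene had several windows the one with the most CG is printed. The MAGEA6 window lies at chrX:152769690-152769939 on the minus strand, the MAGEA12 window at chrX:152733612-152733861 on the plus strand, and the PRAME window at chr22:22559266-22559515 on the minus strand.
MAGEA6: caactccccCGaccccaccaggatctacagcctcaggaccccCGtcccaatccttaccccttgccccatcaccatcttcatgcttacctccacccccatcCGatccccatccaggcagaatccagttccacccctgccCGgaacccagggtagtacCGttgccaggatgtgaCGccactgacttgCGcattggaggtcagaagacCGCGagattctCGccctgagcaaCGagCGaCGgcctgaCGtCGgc
MAGEA12: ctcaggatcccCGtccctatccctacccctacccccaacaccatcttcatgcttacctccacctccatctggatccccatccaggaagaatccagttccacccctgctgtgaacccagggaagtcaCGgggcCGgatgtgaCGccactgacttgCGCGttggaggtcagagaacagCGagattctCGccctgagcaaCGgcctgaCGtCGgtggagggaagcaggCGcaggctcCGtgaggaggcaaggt
PRAME: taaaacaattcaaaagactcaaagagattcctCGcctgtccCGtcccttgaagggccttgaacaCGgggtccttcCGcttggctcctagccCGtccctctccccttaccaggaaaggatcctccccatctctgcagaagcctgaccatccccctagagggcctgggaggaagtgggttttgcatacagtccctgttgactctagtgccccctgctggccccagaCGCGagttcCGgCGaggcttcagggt

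The MAGEA6 window is identical, base for base, to that of MAGEA3 at chrX:152698544-152698793 on the plus strand, so these 2 genes are alike upstream of the start as well. The same holds for a MAGEA2 window and that of MAGEA2B. One GAGE1 window is shared in full with 8 other GAGE genes. The motif CG, which reads the same on both strands, occurs 15 times in the MAGEA6 and MAGEA3 window, 13 times in the printed MAGEA12 window and 9 times in the printed PRAME window. The other MAGEA12 window holds 5, the other PRAME windows hold 4 and 8, and the 5 windows of MAGEA4, which moved with these genes and is not printed, hold 6 to 14. Over 35116 windows of this length the median is 11, and 93.9% hold at least 1 CG. A window with at least as many as MAGEA6 is found in 42.9% of cases, as MAGEA12 in 46.6%, and as PRAME in 54.1%, while for the windows not printed the share is 65.7% for MAGEA12, 70.7% and 56.3% for PRAME, and 44.8% to 61.9% for MAGEA4. The letters GGAAG, searched on both strands, occur in 65.1% of all windows. They are found 0 times in the MAGEA6 window, 3 times in the MAGEA12 window and 2 times in the PRAME window.

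At baseline, KYSE850 cells expressed some cancer-testis genes and not others. The probes of CTAG1A, CTAG2, MAGEA4, MAGEA6 (2 probes), MAGEA12 and PRAME were well above background on all 4 control arrays. The MAGEA1 probe, the GAGE1 probe and the second PRAME probe (A_33_P3249345) were well above background on none of the 8 arrays. Over the 8 arrays the MAGEA1 probe read -5.63 to -4.76, the GAGE1 probe -5.60 to -4.70 and the second PRAME probe -5.31 to -4.715. These 3 probes were not tested, and no fold is given for them. The CTAG1A probe reads mRNA that CTAG1B may share, and the MAGEA6 probes may also read MAGEA3. Probe sequences were not used here, so the copies could not be separated.

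CTAG1A was the member with the largest difference. Its probe (A_23_P148541) read -1.47, -0.72, -0.93 and -1.40 on control arrays 1 to 4, and -3.95, -3.67, -3.84 and -4.46 on KHSRP siRNA arrays 1 to 4. All 4 KHSRP siRNA arrays lay below all 4 control arrays, and the probe was well above background on 4 control arrays and 0 KHSRP siRNA arrays. Group means were -1.13 ± 0.365 and -3.98 ± 0.340 (SD, n = 4). The measured difference was -2.85. As the probe had no signal well above background with KHSRP siRNA, a 6.36-fold difference is also given. For it each dim array was set to its lowest level well above background (-4.475, -4.45, -4.025 and -3.74 for KHSRP siRNA arrays 1 to 4) or to the probe's own reading where that was higher. All KHSRP siRNA arrays but array 4 kept their own reading, which was not well above background, so 6.36-fold is no lower bound. With another background correction (normexp) the log2 difference was -0.635. The difference was -2.71 on slide 1 and -2.985 on slide 2. Of all 18761 tested probes, 8.69% likewise had every KHSRP siRNA array below every control array, and since this fall chose the genes nothing is read from it. Here, as for every gene in bulk RNA, fewer cells that express the gene and less RNA per cell cannot be told apart.

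CTAG2, the nearest relative of CTAG1A, was lower on average, with overlapping groups. Its probe (A_33_P3318343) read -3.09, -2.025, -2.245 and -2.63 on control arrays 1 to 4, and -3.55, -3.76, -4.095 and -2.94 on KHSRP siRNA arrays 1 to 4. KHSRP siRNA array 4 lay above control array 1, and 2 of the 4 KHSRP siRNA arrays had the probe well above background, so it was tested through the control group, where it is the brighter. Means were -2.50 ± 0.469 and -3.59 ± 0.487 (SD, n = 4), a log2 difference of -1.09 (SE 0.298, 95% interval -1.77 to -0.41) that was not called (limma, adjusted p = 0.0753). With the array pairs as a block its adjusted p was 0.0201 (SE 0.230), past the threshold, and the KHSRP siRNA array was the dimmer in 4 of 4 pairs. As the filter let the probe in through its brighter group, and 2 of the dim readings are not well above background, neither the size of the difference nor that call is taken as support. Leaving out an array gave a call only without KHSRP siRNA replicate 4, its brightest KHSRP siRNA array (difference -1.305, limma adjusted p = 0.0471). With any other array left out the limma adjusted p was 0.069 to 0.184, and with normexp it was 0.558. That call is not taken as support either.

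**Figure D1:**
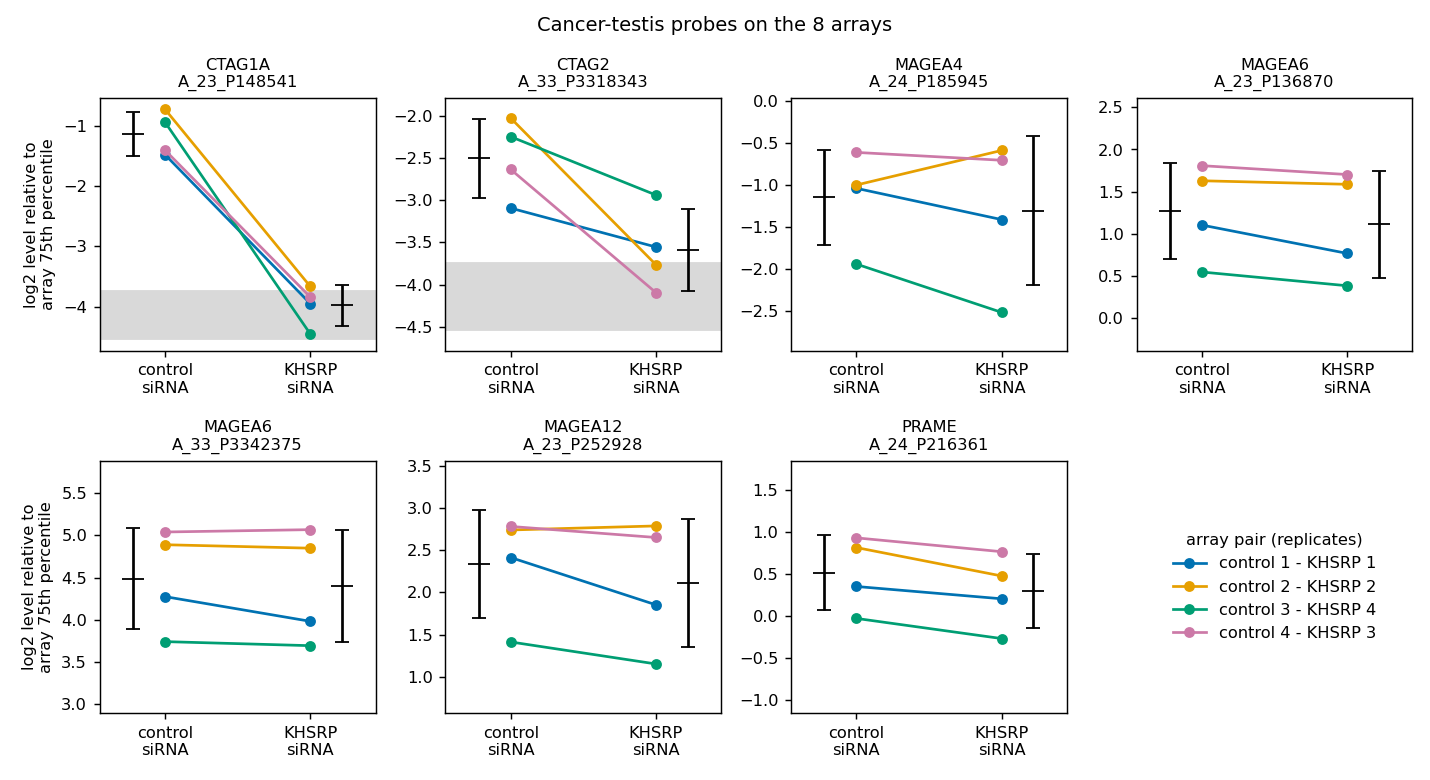
Log2 level relative to the 75th percentile of the array (vertical axis, a separate scale per probe) for the 7 tested probes of 6 genes, control siRNA against KHSRP siRNA. Points are arrays, lines join the 4 array pairs, bars are mean ± SD (n = 4), and grey marks the range of the lowest level well above background on the 8 arrays; CTAG1A falls into or next to the grey band on all 4 KHSRP siRNA arrays, while the MAGEA and PRAME lines run close to level and far apart.

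MAGEA4, a ligase adaptor like the other MAGEA proteins, showed no difference between the groups that exceeded the spread of the arrays. Its probe (A_24_P185945) read -1.04, -1.001, -1.94 and -0.61 on control arrays 1 to 4, and -1.41, -0.59, -0.71 and -2.51 on KHSRP siRNA arrays 1 to 4. The lowest array in each group was far below the others, control array 3 and KHSRP siRNA array 4, and these were one of the 4 pairs. The log2 difference was -0.16 (SE 0.448, 95% interval -1.18 to 0.87, limma adjusted p = 0.915).

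MAGEA6 was read by 2 probes that gave the same order of arrays within each siRNA group. The first (A_33_P3342375) read 4.27, 4.89, 3.74 and 5.04 on control arrays 1 to 4, and 3.98, 4.85, 5.07 and 3.69 on KHSRP siRNA arrays 1 to 4. The second (A_23_P136870, mean of 10 spots) read 1.103, 1.63, 0.55 and 1.81, and then 0.77, 1.59, 1.70 and 0.38. With either probe the groups covered nearly the same range. The differences were -0.09 (SE 0.386, adjusted p = 0.945) and -0.16 (SE 0.370, adjusted p = 0.888) by limma. With the pairs as a block the 95% intervals narrowed to -0.28 to 0.10 and -0.35 to 0.02, neither of them called.

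MAGEA12 was likewise lowest on control array 3 and KHSRP siRNA array 4. Its probe (A_23_P252928, a single spot) read 2.415, 2.74, 1.41 and 2.78 on control arrays 1 to 4, and 1.85, 2.79, 2.65 and 1.15 on KHSRP siRNA arrays 1 to 4. The log2 difference was -0.23 (SE 0.427, 95% interval -1.20 to 0.75, limma adjusted p = 0.860), and -0.50 to 0.05 with the pairs as a block.

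PRAME lies on chromosome 22, apart from the X-linked clusters. Its probe (A_24_P216361) read 0.35, 0.815, -0.03 and 0.93 on control arrays 1 to 4, and 0.21, 0.48, 0.77 and -0.265 on KHSRP siRNA arrays 1 to 4. The groups overlapped, but within each of the 4 pairs the KHSRP siRNA array was the lower. The log2 difference of -0.22 was not called without the block (SE 0.276, limma adjusted p = 0.758) nor with it (95% interval -0.39 to -0.06, adjusted p = 0.05425).

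**Figure D2:**
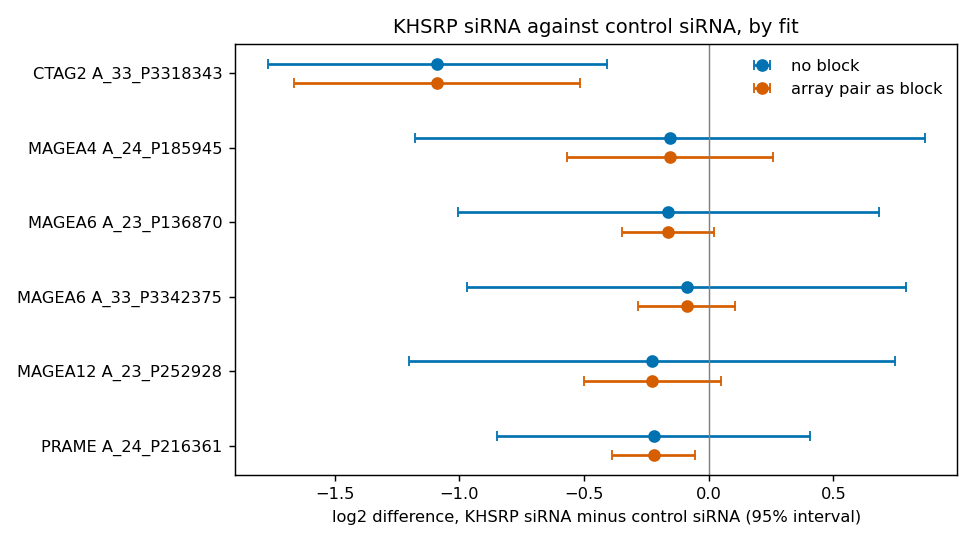
Log2 difference, KHSRP siRNA minus control siRNA (horizontal axis), of the 6 tested probes other than CTAG1A, with 95% intervals from limma without a block (blue) and with the 4 array pairs as a block (orange). All 6 points lie below 0, the CTAG2 intervals, of a probe well above background on 2 of 4 KHSRP siRNA arrays, lie wholly below 0, and the MAGEA and PRAME intervals without a block all span 0.

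Of the 7 tested probes, 1 was called by limma, the CTAG1A probe, where 5.54% of all 18761 tested probes were called (360 higher and 679 lower with KHSRP siRNA). As that probe chose the genes, nothing is read from the count. Of the 6 other probes, 0 were called by limma, 1 had an unadjusted p under 0.05 (CTAG2), and 6 had a negative difference, with a median of -0.19 against 0.01 over all tested probes. These are not 6 separate observations, as MAGEA6 has more than 1 probe and the MAGEA and PRAME probes varied together across arrays. Some of the signs turned when an array was left out, so nothing is read from the shared sign. The methods' t-test with Benjamini-Hochberg adjustment also called 0 of the 6. With the pairs as a block 1 of the 6 was called, where 30.1% of all tested probes were.

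The levels of the MAGEA genes and PRAME varied together across arrays, in both siRNA groups. For each of the 5 probes, control array 3 was the lowest control, followed by control array 1, and KHSRP siRNA array 4 was the lowest of its group, followed by array 1. The summed linear signal of the 5 probes, in units of the 75th percentile, was 28.6, 41.7, 18.7 and 45.9 on control arrays 1 to 4, and 22.6, 40.8, 45.4 and 17.45 on KHSRP siRNA arrays 1 to 4. The sum weights probes by their brightness and is mostly the signal of MAGEA6 probe A_33_P3342375, so it does not speak for the 5 probes alike. The range of the sum was nearly the same in both groups. Over the 8 deviations from group means, Pearson's r ranged from 0.907 to 0.997 among the 10 pairs of these probes. The 0.997 is between the probes of 1 gene, MAGEA6, and the highest r between genes was 0.974 (MAGEA6 A_23_P136870 with PRAME). Probe sequences were not used, so whether the MAGEA probes read each other's mRNA was not tested. MAGEA6 (A_33_P3342375) and PRAME had r = 0.972. The same measure was 0.375 to 0.388 for the CTAG1A probe with these 5 probes, and -0.70 to -0.46 for CTAG2. These are descriptions of 8 arrays that share slides and pairs. The pattern was common: with MAGEA6 as the reference, 16.5% of 12125 named genes with a tested probe had r over 0.9, and 12.5% had r under -0.9.

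Some other germline genes took part on either side of that pattern and some did not. Of the 9 tested X-linked cancer-testis genes that are no members, 3 had r over 0.9 with MAGEA6 and 3 had r under -0.9, while SSX3, CT47A11 and FTHL17 had r of 0.133, 0.007 and -0.068. Of the 20 tested genes of the autosomal list, 0 had r over 0.9 and 3 had r under -0.9, with a median absolute r of 0.588 against 0.755 over all named genes. MAGEA2B, MAGEB2 and CSAG1, all X-linked cancer-testis genes, had r of 0.968, 0.981 and 0.948 with MAGEA6, each by its brightest tested probe. The other tested MAGEA2B probe (A_33_P3411165) had r = 0.713, so the probes of that gene disagree. MAGEB2, for example, read 3.55, 4.115, 2.82 and 4.01 on control arrays 1 to 4, and 3.20, 4.08, 4.11 and 2.72 on KHSRP siRNA arrays 1 to 4. The sperm-protein genes SPANXA1 and SPANXC and the decoy receptor gene IL13RA2, X-linked as well, ran the opposite way, with r of -0.939, -0.915 and -0.944. SPANXA1 read 3.24, 2.095, 3.95 and 1.18 on control arrays 1 to 4, and 2.32, 1.77, 0.65 and 2.90 on KHSRP siRNA arrays 1 to 4. Arrays high in MAGEA and low in SPANX genes were therefore present in both groups. The ubiquitous MAGE genes MAGED4B, MAGEF1, MAGEH1 and NDN, which are transcribed outside the germline, also had r from -0.982 to -0.943, whereas MAGED1 had r = 0.956.

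The genes listed as squamous markers mostly moved against this pattern. Between the siRNA groups 0 of the 10 were called by limma, with 1 at an unadjusted p under 0.05, where 5.54% of all tested probes were called. With the pairs as a block 3 of the 10 were called, where 30.1% of all tested probes were. Of the 10, 8 had r under -0.9 with MAGEA6 and 1, the simple-epithelial adhesion gene EPCAM, had r of 0.988. KRT5, a basal keratin, read 5.84, 4.30, 5.84 and 3.11 on control arrays 1 to 4, and 5.92, 4.465, 2.92 and 5.98 on KHSRP siRNA arrays 1 to 4. The summed signal of the 10 markers ranged from 72.9 to 287.4 on control arrays and from 64.4 to 336.1 on KHSRP siRNA arrays. COL1A1, the 1 fibroblast marker tested, had r = 0.976 with a signal between 0.1745 and 0.453 of the 75th percentile, and the 2 leukocyte markers tested summed to 0.93 to 3.70 on control and 1.06 to 4.565 on KHSRP siRNA arrays. CD68 had r of -0.945, and its difference of 0.29 was called with the pairs as a block (adjusted p = 0.0184). The 75th percentile signal itself was 115.7, 116.8, 98.9 and 98.1 on control arrays 1 to 4, and 110.1, 110.5, 95.8 and 87.7 on KHSRP siRNA arrays 1 to 4. It was lower on slide 2 (arrays 3 and 4 of each group) than on slide 1, and on each slide lower with KHSRP siRNA. Neither its part nor that of the squamous, fibroblast and leukocyte markers in the spread of the MAGEA and PRAME genes was tested.

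**Figure D3:**
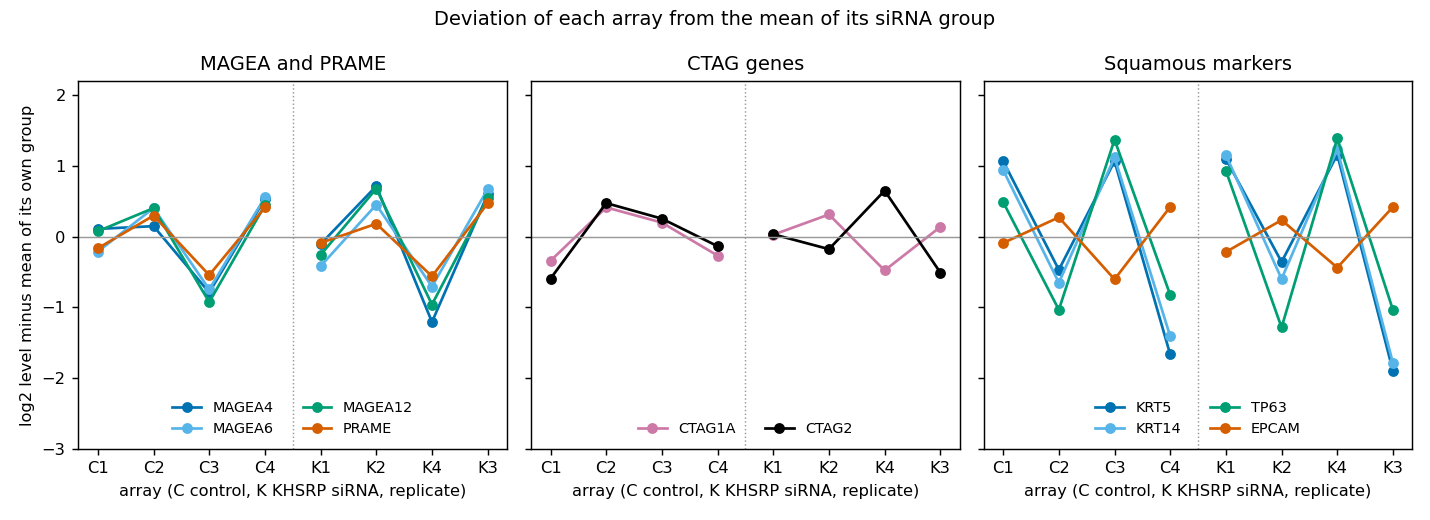
Log2 level minus the mean of the same siRNA group (vertical axis) for each of the 8 arrays, with array pairs in the same order on each side (C1 with K1, C2 with K2, C3 with K4, C4 with K3). MAGEA4, MAGEA6, MAGEA12 and PRAME trace 1 zigzag in both groups, KRT5, KRT14 and TP63 trace its mirror image, and CTAG1A and CTAG2 follow neither throughout.

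Further X-linked cancer-testis genes were mostly undetected. Of 70 listed, 46 had a probe, 33 of these were well above background on no array, and 9 were tested. None of the 9 was called by limma, and none had an unadjusted p under 0.05. Their median difference was -0.20. With the pairs as a block 2 of the 9 were called, MAGEA2B (A_23_P148255, -0.31, adjusted p = 0.0413) and SPANXA1 (-0.71, adjusted p = 0.0152), both lower, where 30.1% of all tested probes were called. The other tested MAGEA2B probe (A_33_P3411165) differed by -0.46 and was not called with the block (adjusted p = 0.257). Of the 15 genes of the PRAME family, 13 had a probe and 1, LRRC14, was tested, with a difference of 0.22 (limma, adjusted p = 0.824). The male germ cell list, with 10 genes, had 3 tested (TNP2, ACR and SYCE3) and 5 above background on no array. None of the 3 was called by limma, with 1 at an unadjusted p under 0.05, and 1 was called with the block, against 30.1% of all tested probes.

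In a further list of cancer-testis genes, autosomal except for PLAC1, 6 fell with KHSRP siRNA. Of 50 listed, 46 had a probe and 20 were tested, and the 6 called by limma were all lower, where 5.54% of all tested probes were called in either direction, with a median difference over the 20 of -0.385. The largest was DCAF12, a ubiquitin ligase substrate receptor, which read -0.73, -0.52, -0.76 and -0.50 on control arrays 1 to 4, and -2.16, -1.73, -2.14 and -1.97 on KHSRP siRNA arrays 1 to 4. Its groups did not overlap, and the difference was -1.38 (SE 0.136, adjusted p = 0.00145). PBK, a mitotic kinase, fell by 0.84 (adjusted p = 0.00673), and ZNF165, a zinc finger protein, fell by 0.83 (adjusted p = 0.0196) on the log2 scale. The other called genes were KIF2C, CEP55 and OIP5, which act in the mitotic spindle, cytokinesis and the centromere. Like PBK, these are transcribed in dividing cells of many tissues. With the pairs as a block 13 of the 20 were called, 1 of them higher, where 30.1% of all tested probes were called.

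The genes whose brightest tested probe was most like the CTAG1A probe across the 8 arrays were CCNB1 (r = 0.993), CNOT11 (0.992), DLGAP5 (0.991), ST7 (0.988) and PITPNB (0.987), by Pearson's r over 8 arrays. As they were picked for their likeness to a probe with a step between the groups, that step is no test in them either. CCNB1, the mitotic cyclin, had means of 4.74 ± 0.081 with control siRNA and 3.71 ± 0.083 with KHSRP siRNA (SD, n = 4). ST7, like CTAG1A, was well above background on 4 control arrays but on 1 KHSRP siRNA array.

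The list of DNA methylation and chromatin regulators held enzymes that add or remove methyl groups, repressors and some activators. Of 33 listed, 29 were tested and 2 were called by limma, a share near the 5.54% of all tested probes. DNMT3B, a de novo DNA methyltransferase, read 1.24, 1.497, 1.07 and 1.62 on control arrays 1 to 4, and 2.11, 2.275, 2.16 and 2.05 on KHSRP siRNA arrays 1 to 4, higher by 0.79 on the log2 scale (SE 0.143, adjusted p = 0.0165). EZH2, the histone methyltransferase of Polycomb, fell by 1.28 (SE 0.216, adjusted p = 0.0127). The maintenance methyltransferase DNMT1 differed by 0.03 (adjusted p = 0.957) and DNMT3A (A_33_P3272330) by 0.02 (adjusted p = 0.981). A second DNMT3A probe (A_23_P154500) differed by -0.43 (adjusted p = 0.147) without overlap between the groups and was called with the block (adjusted p = 0.0166), so the probes of that gene disagree. With the pairs as a block 8 of the 29 were called, 4 higher and 4 lower, a share near the 30.1% of all tested probes. Among 23 partners of MAGE and PRAME proteins, 18 were tested and 0 were called by limma, with 5 at an unadjusted p under 0.05. TRIM28, the ligase that MAGEA3 and MAGEA6 bind, differed by -0.095 (adjusted p = 0.911). PRKAA2, which encodes a catalytic subunit of the kinase AMPK, differed by -0.92 (SE 0.371, adjusted p = 0.213), and had an adjusted p of 0.00272 with the pairs as a block. Its probe was well above background on 3 of the 4 KHSRP siRNA arrays and was tested through the control group, where it is the brighter. Neither the size of that difference nor the call with the block is therefore taken as support. With the block 5 of the 18 partners were called, against 30.1% of all tested probes. Of the 8 tested ubiquitous MAGE genes, 1 was called by limma, against 5.54% of all tested probes. This was NSMCE3, a subunit of a complex that acts in DNA repair, at -0.59 (SE 0.120, adjusted p = 0.0265). With the block 3 of the 8 were called, against 30.1% of all tested probes.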

How the data were processed

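Total RNA of 8 KYSE850 samples was hybridized to one-colour Agilent arrays. The authors extracted the spots with Feature Extraction (11.5.1.1 per the file headers; the submitters' processing notes name 12.6), and the deposited processed signal is a linear fluorescence intensity, background-subtracted and not scaled between arrays. The authors also deposited a series matrix of log2 values, whose columns for KHSRP siRNA replicates 3 and 4 hold the scanner values of each other; it was used as an alternative. Its depth is that of 1 array per sample, and the number of arrays limits the precision.

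Outlier and control spots were left out, log2 signals were averaged per probe, and the array's 75th percentile was subtracted. Probes were named through RefSeq accessions (GRCh38.p14; 27241 of 42405, 64.2%). To be tested, a probe needed a share of 0.5 or more of its spots well above background on each of the 4 arrays in either group. The main comparison used limma 3.58.1 (R 4.3.3) without a block, two-sided, and p-values were adjusted by Benjamini-Hochberg across 18761 probes, with a threshold of 0.05. Python 3.11.15 was used for summaries. The fit without a block was tested on simulated data, drawn independently for each array. Such data lack the likeness within pairs, so that test covers neither this likeness nor the fit with a block.

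Deviations from group means correlated by 0.521, 0.433, 0.833 and 0.842 within the 4 pairs numbered as in the series matrix, and by 0.521, 0.433, -0.672 and -0.637 within those numbered as in the labels. All 4 of the former were above 0.1, so these pairs gave the block used beside the results. The choice was made on the same levels that were then fitted, so p-values with this block may be too small. Which numbering is right is not known.

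The members, lists and tests were chosen with earlier results of these data known. The rule for named genes took every member, KHSRP, up to 3 called genes per further list, and the 5 genes most like the CTAG1A probe. A further list of genes is not reported here. All other genes named were chosen after their values were seen. Alternatives covered scaling, background correction (normexp, offset 50, on the median spot brightness), the series matrix, the filter, slide and replicate blocks, the variance model, the methods' t-test and each array left out.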

Additional observations from a re-analysis of the deposited data

How the results depend on the processing

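KHSRP (A_23_P16157) stayed called and lower in 22 of 22 alternatives (log2 difference -3.46 to -3.27). The CTAG1A difference stayed negative wherever it was tested (-2.96 to -0.64, the smallest with normexp, which compresses dim probes). Its 6.36-fold value, which is no lower bound, ranged from 5.79-fold to 6.89-fold with an array left out. Without a filter 42405 probes were tested and 319 called. Median scaling called 570, the methods' t-test without adjustment 3710, the replicate block by label numbers 156, the replicate block by series matrix numbers 5644, and leaving out an array 491 to 741, against 1039. Of the member probes, 1 was called in 18 of 22 alternatives, the CTAG1A probe that chose the genes, so this count is no sign of stability. With the filter on all 8 arrays 5 member probes were left and 0 were called. With the replicate block by series matrix numbers, and with the methods' t-test without adjustment, 2 were called, and with an array left out 1 to 2, CTAG2 being the second in each case. The block by series matrix numbers changed the call of no other member probe. CTAG2 ranged from -1.305 to -0.149, the latter with normexp. PRAME stayed negative throughout (-0.40 to -0.03).

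The sign of some small differences turned when an array was left out. Without control siRNA replicate 4, MAGEA4 was 0.021, MAGEA6 (A_23_P136870) 0.017 and MAGEA6 (A_33_P3342375) 0.096. Without KHSRP siRNA replicate 4 these were 0.245, 0.081 and 0.147, and MAGEA12 was 0.094. MAGEA6 (A_33_P3342375) was also 0.046 without control siRNA replicate 2 and 0.050 without KHSRP siRNA replicate 1. With arrays left out, MAGEA4 ranged from -0.42 to 0.245, MAGEA6 from -0.403 to 0.081 (A_23_P136870) and from -0.337 to 0.147 (A_33_P3342375), and MAGEA12 from -0.535 to 0.094. The cause was not tested. The block by label numbers pairs arrays 3 and 4 with partners whose deviations correlated by -0.672 and -0.637. Which numbering is right is not known. Members that are not well above background have no measured level, and 4 arrays per group leave intervals on the log2 scale that reach from about -1.20 to 0.75 for MAGEA12.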
